A study of Mus musculus with 16 samples.

Results

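Secretory immunoglobulin A (IgA) links a plasma cell product to an epithelial receptor, and 5 genes of this system were followed in the cecal mucosa: Igha, the constant region of the IgA heavy chain, Jchain, the chain that joins IgA monomers, Pigr, the polymeric immunoglobulin receptor, Ighm, the constant region of the IgM heavy chain, and Mzb1, a chaperone-like protein of the endoplasmic reticulum of B cells and plasma cells. All probe sets annotated to these genes were taken from the Mouse 430 2.0 GeneChip, which gave 22 of its 45101 probe sets and 5 of its 18194 named genes. Of the 22 probe sets 18 named 1 gene: 3 for Igha, 1 for Jchain, 2 for Pigr, 11 for Ighm and 1 for Mzb1. The other 4 named Ighm together with further genes, and no single gene is read from them. The genes were chosen from measured values of these GeneChips, in which Igha and Jchain were lower in every colonized state than in germ-free mice, so their differences to germ-free mice are given as a description with no test.

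IgA is the main antibody of the gut surface. Plasma cells of the lamina propria secrete it as dimers held together by the J chain, and Pigr on the basolateral face of the epithelium binds the J chain-containing polymers of IgA and IgM, carries them through the cell and is cleaved at the lumen, where a part of it stays on the antibody as secretory component. The members thus stand for neighbouring cell types, with Igha, Jchain, Ighm and Mzb1 transcribed by cells of the B lineage and Pigr by the epithelium.

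Cecal epithelium was recovered by laser capture microdissection from adult NMRI mice on a standard polysaccharide-rich chow, and the methods describe the animals as male and raised germ-free. There were 4 colonization states: Bt/Bl, colonized for 10 days with both Bacteroides thetaiotaomicron and Bifidobacterium longum, Bt, colonized for 10 days with B. thetaiotaomicron alone, Bl, colonized for 10 days with B. longum alone, and GF, kept germ-free and untreated. For each state equal masses of RNA from 4 mice were pooled, the pool was amplified in duplicate from 5 ng, and each product was hybridized to its own GeneChip: 9132 and 9133 for Bt/Bl, 9130 and 9443 for Bt, 9134 and 9135 for Bl, and 9128 and 9129 for GF. The spread between both GeneChips of a state is therefore that of amplification and hybridization, and every comparison sets 1 pool against another.

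The authors deposited MAS5 signals, linear values that are comparable between GeneChips for 1 probe set but not between probe sets, scaled to a trimmed mean of 1500 on each GeneChip. Before taking log2, a floor of 144.7 (the 25th percentile of the whole table) replaced any lower signal. A probe set entered the tests if some state had both of its GeneChips over 583.1, the table's median, called the filter signal here. This held for 24865 probe sets, among them 14 of the 18 that name a single member. States were compared with limma over all 8 GeneChips with 4 residual degrees of freedom, and adjusted p values are those of Benjamini and Hochberg over all 24865. With duplicates only, the precision of each value is limited.

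The captured tissue was rich in epithelial transcripts. All 11 epithelial markers examined exceeded the filter signal on all 8 GeneChips, led by Krt8, a keratin of simple epithelia, at 429291 to 692118. Of 16 genes of the B lineage with a probe set 12 passed the filter and 4 did not: Cd79a and Cd79b, the signalling chains of the B cell receptor, Tnfrsf17, the BCMA receptor of plasma cells, and Tnfrsf13c, the BAFF receptor. Tnfrsf17 stayed between 38.2 and 234 on all 8 GeneChips, while Cd79b exceeded the filter signal on 3, at 842 in Bt, 1004 in Bl and 777 in GF. Of the genes that passed, named here after their values were seen, Ms4a1, the CD20 antigen of B cells, exceeded the filter signal on 6 GeneChips, Pax5, the factor of B cell identity, on 7, and Pou2af1, a coactivator of immunoglobulin genes, on all 8, at 597 to 2204. Signals of these B cell genes were thus low, and some differed widely between duplicates of 1 pool. Ms4a1 had 959 and 82.0 in Bl, and Pax5 had 985.5 and 124 in GF. Without detection calls these signals do not settle whether the genes were expressed. The GF pool stood apart in ways that do not involve immunoglobulin. Xist, which silences an X chromosome in females, had 17157 and 22762 in GF. In colonized mice it had 7541 and 11176 in Bt/Bl, 4908 and 5086 in Bt, and 4405 and 3753 in Bl. Both Bt/Bl GeneChips were thus also above those of Bt and Bl. The Y-linked gene Eif2s3y had 3201 to 5657 in colonized mice, against 71.3 and 614 in GF, which goes against a description of all mice as male. Fabp6, an ileal bile acid-binding protein, had 1179 to 1798 in colonized mice, against 68029 and 95108 in GF. For Gapdh the 3′ probe set over the 5′ one, a ratio used to judge RNA integrity and amplification, gave 8.9 to 17.6 in colonized mice, against 5.7 and 7.3 in GF, while for actin it gave 21.4 to 36.3 in colonized mice, against 36.9 and 38.8 in GF. Each difference to GF given below rests on this pool, and what set the pool apart cannot be told apart from colonization.

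The IgA heavy chain gave the clearest pattern among the members. The constant region lies on chromosome 12 at 113256204-113260236 (GRCm38.p6). By probe set 1421653_a_at, the brightest of its 3, Igha had signals of 49896 and 34067 in Bt/Bl, 12171 and 13110 in Bt, 25565 and 27712 in Bl, against 113964 and 95694 in GF. The 4 states did not overlap: both GF GeneChips were highest, Bt/Bl came next, then Bl, and both Bt GeneChips were lowest. The means were 41982 ± 11193 in Bt/Bl, 12640 ± 664 in Bt and 26639 ± 1518 in Bl, against 104829 ± 12919 in GF (SD, n = 2 GeneChips each). As a share of the GF mean the signal stood at 40.0% in Bt/Bl, 12.1% in Bt and 25.4% in Bl. The log2 differences to GF were -1.34 in Bt/Bl, -3.05 in Bt and -1.97 in Bl, each with a standard error of 0.23.

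The second Igha probe set, 1425763_x_at, repeated the order with little spread, at 30419 and 26980 in Bt/Bl, 10428 and 9476 in Bt, 18389 and 18566 in Bl, against 67287 and 67482 in GF. Here too no state overlapped another, and the log2 differences to GF were -1.23 in Bt/Bl, -2.76 in Bt and -1.87 in Bl (standard error 0.20). The third, 1429381_x_at, had 11148 and 6553 in Bt/Bl, 3528 and 3274 in Bt, 7421 and 4346 in Bl, against 15916 and 20158 in GF. In this dimmer probe set Bt/Bl and Bl overlapped, while GF stayed above and Bt below all other GeneChips. Over the 3 probe sets the log2 difference to GF lay between -1.34 and -1.07 in Bt/Bl, between -3.05 and -2.40 in Bt, and between -1.97 and -1.66 in Bl. The 3 probe sets measure 1 transcript in the same RNA and are not replicates.

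Jchain, whose product joins IgA monomers and is what Pigr recognizes in the polymer, followed the same order of states. Its single probe set, 1424305_at, had 6182 and 5885 in Bt/Bl, 789 and 2226 in Bt, 3497 and 3590 in Bl, against 9551 and 11759 in GF. No state overlapped another, and on the log2 scale the duplicates lay farthest apart in Bt. The signal stood at 56.6% of the GF mean in Bt/Bl, 14.1% in Bt and 33.3% in Bl, and the log2 differences to GF were -0.81, -3.00 and -1.58 in that order, each with a standard error of 0.41. The value in Bt depended on which of its GeneChips was read: the log2 difference to GF was -2.25 without 9130 and -3.75 without 9443. The strict order of GF over Bt/Bl over Bl over Bt, with no overlap between any pair of states, was held by 2 Igha probe sets and by Jchain, and by 15 of the 24865 probe sets tested (0.0603%). The genes were chosen with this pattern in view, so the share is given only to place the values.

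**Figure D1:**
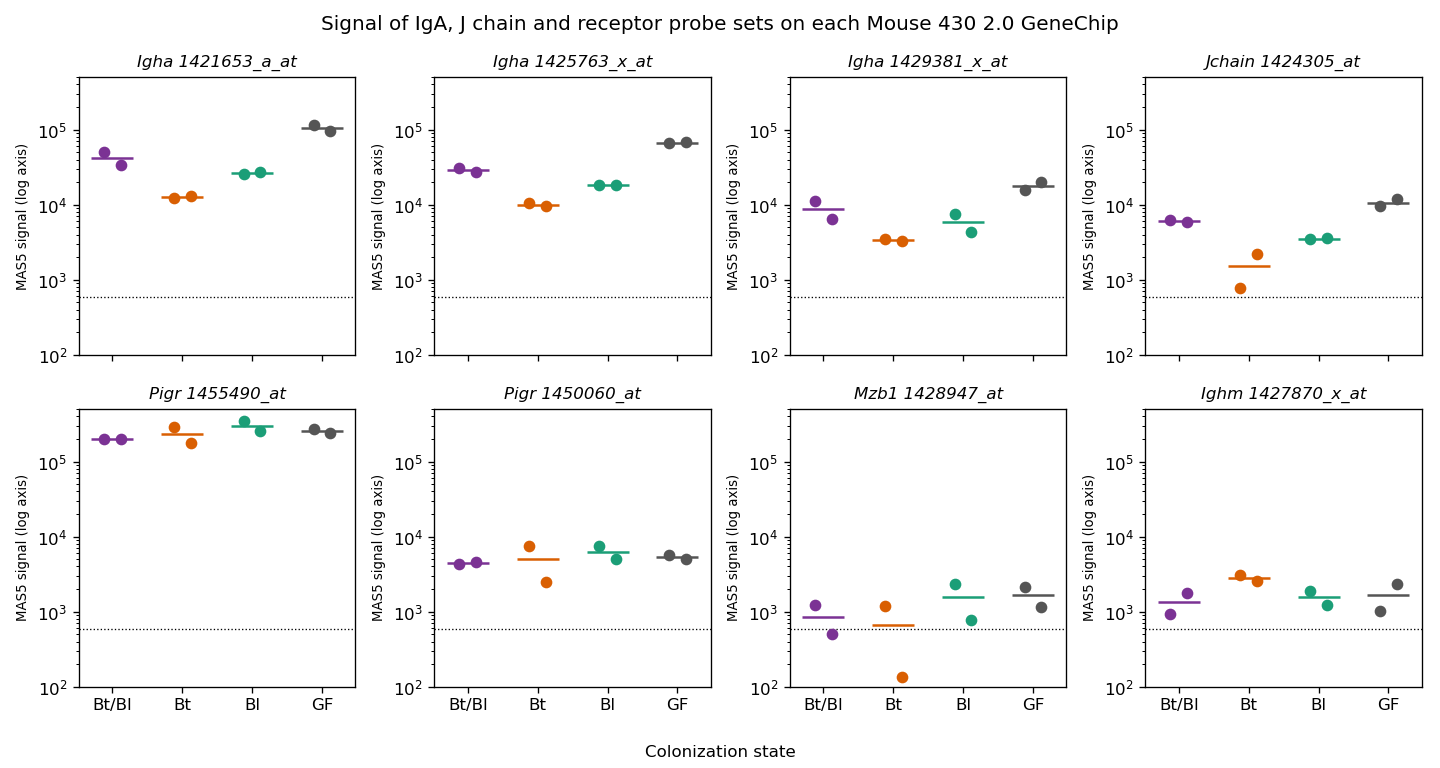
MAS5 signal (log axis) of 8 member probe sets on each GeneChip, by colonization state from Bt/Bl at the left to GF at the right. Points are single GeneChips, horizontal bars are the means of both GeneChips of a state, and the dotted line is the filter signal of 583.1. Igha and Jchain were highest in GF and lowest in Bt, while both Pigr probe sets overlapped between Bt, Bl and GF.

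Light chains gave a further reading of antibody transcripts that the choice of genes did not use by name, though on the same GeneChips. Of 33 probe sets annotated to other immunoglobulin genes 29 did not exceed a signal of 2000 on any GeneChip. The remaining 4 were kappa light chain probe sets. The brightest, 1427660_x_at, is annotated to several immunoglobulin kappa genes and had 36132 and 34846 in Bt/Bl, 20532 and 14686 in Bt, 31369 and 29711 in Bl, against 83073 and 84897 in GF. GF was thus above and Bt below all other GeneChips, as for Igha. The means were 42.3% of GF in Bt/Bl, 21.0% in Bt and 36.4% in Bl. For 1427455_x_at and 1452417_x_at, annotated to the same kappa genes, the corresponding shares were 39.7% and 44.8% in Bt/Bl, 20.5% and 17.9% in Bt, and 40.2% and 30.7% in Bl. Igkv8-30, a kappa variable segment named alone by 1452463_x_at, had 3587 and 4360 in Bt/Bl, 1255 and 3103 in Bt, 2958 and 3426 in Bl, against 6843 and 6013 in GF, with overlap between Bt and Bl. Among these probe sets Bt/Bl and Bl were closer together than for Igha, and by 1427455_x_at their means were nearly equal, at 18610 in Bt/Bl and 18867 in Bl. In Bt/Bl against Bt none of the 4 passed, with log2 differences of 0.96 to 1.38 and limma adjusted p of 0.1046 to 0.4024.

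Pigr, the epithelial receptor that carries the antibody, did not share this order. The gene lies on chromosome 1 at 130826684-130852249 (GRCm38.p6). By probe set 1455490_at it had signals of 199946 and 202218 in Bt/Bl, 291830 and 178543 in Bt, 341265 and 251623 in Bl, against 271856 and 238814 in GF. The Bt GeneChips lay on either side of those of GF, 1 Bl GeneChip lay between those of GF, and both Bt/Bl GeneChips were below those of Bl and GF. The means were 78.8% of GF in Bt/Bl, 92.1% in Bt and 116% in Bl, and the log2 differences to GF were -0.34, -0.16 and 0.20 in that order, each with a standard error of 0.30. With 1 GeneChip left out the difference turned its sign in Bt, at -0.51 to 0.20, and in Bl, at -0.02 to 0.42. Over all 8 GeneChips the highest Pigr signal was 1.91 times the lowest by this probe set and 3.05 times by 1450060_at. The ratio was 9.36 for Igha by its brightest probe set and 14.9 for Jchain.

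The other Pigr probe set, 1450060_at, had 4304 and 4522 in Bt/Bl, 7523 and 2474 in Bt, 7545 and 4971 in Bl, against 5661 and 5101 in GF. Its means were 82.0% of GF in Bt/Bl, 92.9% in Bt and 116% in Bl, close to those of the brighter probe set. Both probe sets of Pigr were highest on GeneChip 9134 of Bl and lowest on 9443 of Bt, and their log2 floored signals had a Pearson correlation of 0.915 over the 8 GeneChips. The spread of Pigr between duplicates of Bt and of Bl was thus shared by its probe sets.

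Ighm, the heavy chain of IgM, gave no pattern that its probe sets shared. Its 11 probe sets had signals between 20.7 and 3068, and 10 of them fell under the filter signal on at least 1 GeneChip. The brightest, 1427870_x_at, had 929 and 1767 in Bt/Bl, 3068 and 2583 in Bt, 1908 and 1218 in Bl, against 1028 and 2333 in GF. Here Bt was above all other GeneChips, the opposite end from its place for Igha, and the other 3 states overlapped. A second probe set of Ighm, 1425247_a_at, had 813 and 1339 in Bt/Bl, 443 and 465 in Bt, 1682 and 909 in Bl, against 1640 and 708 in GF, with Bt below all others. The 2 probe sets thus placed Bt at opposite ends. Of the remaining 9 probe sets that name Ighm alone 5 passed the filter, with signals of 102 to 1331 for 1425324_x_at, 145 to 1092 for 1425385_a_at, 26.3 to 868 for 1426196_at, 56.2 to 1504 for 1427756_x_at and 136 to 1328 for 1452535_at. The other 4, 1427329_a_at, 1427351_s_at, 1427869_at and 1451949_at, never exceeded the filter signal on both GeneChips of a state. Of the 4 probe sets annotated to Ighm and other genes, 1427758_x_at and 1427851_x_at did not pass the filter, and 1451947_at and 1452538_at had 34.3 to 1625 and 41.9 to 1045. Pigr also carries polymeric IgM, but no level of Ighm can be given from these values.

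Mzb1, which assists the folding and secretion of antibodies in the endoplasmic reticulum, was dim and its duplicates spread widely. Its probe set, 1428947_at, had 1212 and 497 in Bt/Bl, 1190 and 134 in Bt, 2344 and 774 in Bl, against 2155 and 1145 in GF. All 4 states overlapped, and 1 of the Bt values was under the floor.

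**Figure D2:**
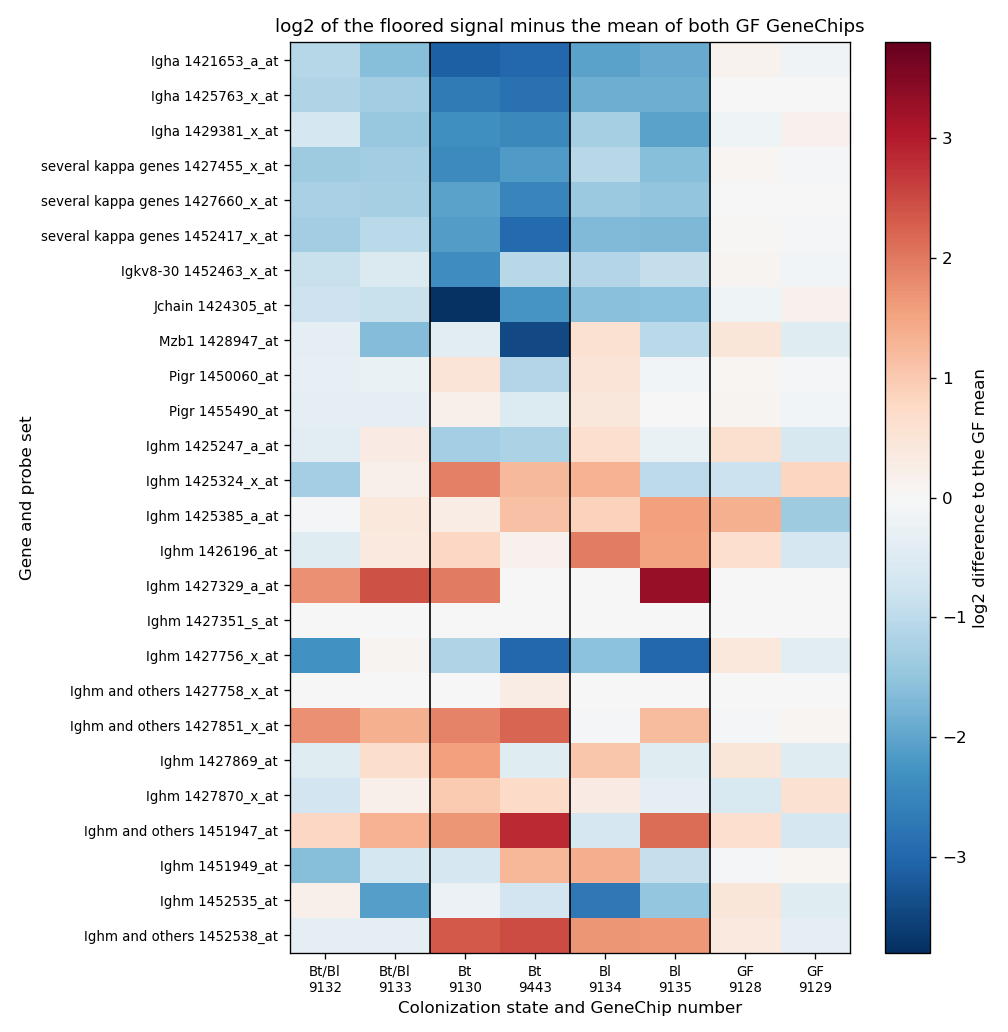
Heat map of log2 floored signal minus the mean of both GF GeneChips for all 22 member probe sets and 4 kappa light chain probe sets (rows) on the 8 GeneChips (columns, Bt/Bl at the left, GF at the right). Blue is below and red above GF. The Igha, kappa and Jchain rows were below GF on all 6 GeneChips of colonized mice, from -0.56 for Igkv8-30 in Bt/Bl to -3.75 for Jchain in Bt, the Pigr rows lay between -1.12 and 0.49, and the Ighm rows had no shared colour.

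Plasma cell transcripts were then set against the receptor. The mean log2 difference to GF of Igha, Jchain, Ighm and Mzb1, each by its brightest probe set, minus that of Pigr was -0.52 in Bt/Bl, -1.62 in Bt and -1.15 in Bl. On single GeneChips it was -0.39 and -0.65 in Bt/Bl, -1.76 and -1.47 in Bt, -1.11 and -1.19 in Bl, against -0.13 and 0.13 in GF. No state overlapped another on this measure. In Bt it averaged log2 differences to GF of -3.05 for Igha, -3.00 for Jchain, 0.86 for Ighm and -1.92 for Mzb1. The measure thus does not stand for each of the genes. With Igha and Jchain alone, a restriction made after Ighm and Mzb1 were seen to be dim, the difference was -0.74 in Bt/Bl, -2.86 in Bt and -1.98 in Bl, and the Bt GeneChips at -3.62 and -2.11 then overlapped those of Bl at -2.24 and -1.72. These are descriptions of genes chosen for such values and carry no test. In such tissue fewer plasma cells, less transcript per plasma cell and less lamina propria captured along with the epithelium cannot be told apart. The same holds for what set the GF pool apart in Xist, Eif2s3y and Fabp6.

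**Figure D3:**
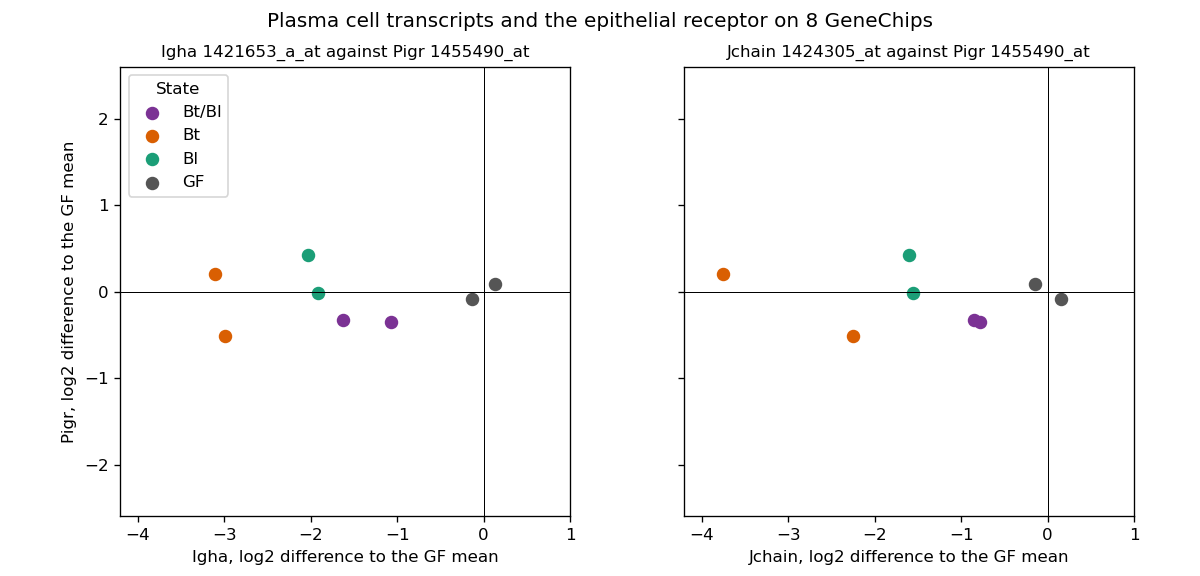
Pigr (vertical axis) against Igha (left panel) and Jchain (right panel) on 8 GeneChips, each as log2 difference to the GF mean, with both axes at the same scale. States spread along the horizontal axis, to -3.10 for Igha and -3.75 for Jchain in Bt, while Pigr by 1455490_at stayed between -0.51 and 0.42.

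Over the 8 GeneChips the log2 signal of Jchain had a Pearson correlation of 0.923, 0.91 and 0.873 with the 3 Igha probe sets and of 0.959 with Igkv8-30. With the brightest Pigr probe set it was -0.184 for Jchain and 0.036 for Igha, and with the brightest Ighm probe set it was -0.571 for Jchain. Mzb1 correlated at 0.262 with Jchain, at 0.508 with Igha and at 0.793 with Pigr. These values are descriptions over 8 points that share 4 RNA pools. Among probe sets past the filter that name 1 gene, the 5 most like Jchain were Pigu (0.98), a subunit of the GPI transamidase, Thap2 (0.965), Igkv8-30 (0.959), Cnot6 (0.954), a deadenylase of the CCR4-NOT complex, and Mapre2 (0.942), a microtubule end-binding protein. Pigu had 970 and 1003 in Bt/Bl, 158 and 619 in Bt, 699 and 597 in Bl, against 1534 and 1768 in GF.

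The 5 most like Pigr were Ndufa13 (0.985), a subunit of respiratory complex I, Odf3b (0.981), Cyc1 (0.98), cytochrome c1 of respiratory complex III, Ntn1 (0.978), the guidance factor netrin, and Slc9a3r1 (0.972), a scaffold of the brush border. Cyc1 had 169385 and 186087 in Bt/Bl, 246117 and 151341 in Bt, 294028 and 222094 in Bl, against 259659 and 212473 in GF. Like Pigr it was highest on GeneChip 9134 and lowest on 9443, so the likeness includes the spread between duplicates of 1 pool.

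Jchain and Pigr stand for the plasma cell and the epithelial side of the comparison. The receptor's start also has CACGTG, a spelling of the E-box known to bind factors such as USF1 and USF2. The RefSeq sequences around the annotated starts of both genes (GRCm38.p6) are therefore shown. Each covers 250 bases before and 50 bases after the start, at chr5:88527848-88528147 on the minus strand for Jchain and at chr1:130826434-130826733 on the plus strand for Pigr. Capitals mark CACGTG and CAGGTG, searched on both strands.
Jchain: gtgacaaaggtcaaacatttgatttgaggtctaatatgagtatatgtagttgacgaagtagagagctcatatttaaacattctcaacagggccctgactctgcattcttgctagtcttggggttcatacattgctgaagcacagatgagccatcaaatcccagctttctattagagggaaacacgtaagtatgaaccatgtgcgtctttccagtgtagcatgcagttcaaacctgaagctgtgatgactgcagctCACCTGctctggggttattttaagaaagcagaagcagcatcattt
Pigr: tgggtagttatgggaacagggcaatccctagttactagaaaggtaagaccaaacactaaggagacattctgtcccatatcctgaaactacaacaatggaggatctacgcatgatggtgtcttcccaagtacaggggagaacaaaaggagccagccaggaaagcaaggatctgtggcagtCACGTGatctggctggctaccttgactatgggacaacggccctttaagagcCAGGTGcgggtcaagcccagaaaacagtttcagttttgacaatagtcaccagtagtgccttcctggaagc

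In Pigr the match to CACGTG began 71 bases before the start and the match to CAGGTG 20 bases before it. In Jchain CACGTG had 0 matches, and the single match to CAGGTG, on the other strand, began at base 6 after the start. CACGTG occurred in 7.15% of the 32851 sequences of this length given for the mouse, and CAGGTG in 20.2%. Both motifs also spell the general E-box CANNTG, which occurred in 72.3%. CANNTG had 4 matches in Jchain and 2 in Pigr, so E-boxes in general did not set the receptor apart. The octamer ATGCAAAT, known from immunoglobulin promoters, had 0 matches in either sequence and occurred in 1.74% of all. A match is a run of letters in this window and not a measured binding site. Usf1 and Usf2, named here because of this motif, were tested, and neither passed in any comparison.

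Comparisons between colonized states set the pool from mice with both species against each pool from mice with 1, and these pools against each other. Each pool was amplified in duplicate, so a p value weighs a difference between pools against the spread of amplification and hybridization, not against the spread between mice, and cannot answer whether a species changed a transcript. The comparisons use the same GeneChips as the values from which the genes were chosen, so they are no independent support for the order of states. The Bt/Bl pool also differed from those of Bt and Bl in Xist, without overlap, while Eif2s3y overlapped. What set Xist apart there cannot be told apart from the difference in species. In Bt/Bl against Bt, 2 of the 14 tested member probe sets passed (14.3%), against 0.0483% of all 24865 probe sets, and both were of Igha. Igha was 3.26-fold higher in Bt/Bl by 1421653_a_at (log2 difference 1.71, standard error 0.23, limma adjusted p = 0.0083) and 2.88-fold higher by 1425763_x_at (log2 difference 1.53, standard error 0.20, limma adjusted p = 0.0083), on both GeneChips of Bt/Bl against both of Bt. The third Igha probe set had a log2 difference of 1.33 that did not pass (adjusted p = 0.1711), and that of Jchain, 2.19 with a standard error of 0.41 and a 95% interval from 1.31 to 3.07, did not pass either (adjusted p = 0.0983). These 4 were the member probe sets with an unadjusted p under 0.05, and all 4 were higher in Bt/Bl.

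Both calls for Igha depended on the fit more than the differences did. Over 18 alternative settings the log2 difference stayed between 1.43 and 1.98 by 1421653_a_at and between 1.44 and 1.69 by 1425763_x_at, and each probe set was called in 5 of the 18, with adjusted p from 0.012 to 0.361 and from 0.012 to 0.29. Leaving out 1 GeneChip kept both calls only without 9130 of Bt. They were lost without 9443 of Bt (adjusted p = 0.0788 for both), 9132 or 9133 of Bt/Bl, 9134 or 9135 of Bl, and 9128 or 9129 of GF, with adjusted p up to 0.198. Without both GF GeneChips, which stood apart in Xist, Eif2s3y and Fabp6, the adjusted p was 0.0531 for both at unchanged differences.

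Between Bt/Bl and Bt, Pigr had log2 differences of -0.18 (95% interval -0.81 to 0.45, adjusted p = 0.8708) by 1455490_at and 0.03 (-0.87 to 0.93, adjusted p = 0.993) by 1450060_at. These intervals leave room for changes of Pigr in either direction and do not show that its level was the same. For the 7 tested probe sets of Ighm the log2 differences between Bt/Bl and Bt lay on both sides of 0, from -2.13 by 1425324_x_at to 1.20 by 1425247_a_at, and none passed.

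In Bt/Bl against Bl, 0 of the 14 member probe sets passed with limma, against 0.0563% of all, and 3 had an unadjusted p under 0.05, of which 2, both of Igha, were higher and 1, Ighm by 1426196_at, was lower in Bt/Bl (log2 difference -1.78, adjusted p = 0.3841). Igha was 1.55-fold higher in Bt/Bl by each of its brighter probe sets, with log2 differences of 0.63 (95% interval 0.14 to 1.12, adjusted p = 0.2887) and 0.63 (0.20 to 1.07, adjusted p = 0.2435), and Jchain had a log2 difference of 0.77 (-0.11 to 1.65, adjusted p = 0.4983). Pigr had a log2 difference of -0.54 by 1455490_at (-1.17 to 0.09, adjusted p = 0.504), with both Bt/Bl GeneChips below both of Bl. In Bt against Bl, again 0 of 14 passed, against 0.0442% of all, and 4 had an unadjusted p under 0.05, all lower in Bt. Igha had a log2 difference of -1.08 (-1.56 to -0.59, adjusted p = 0.1293) by its brightest probe set, Jchain -1.42 (-2.30 to -0.54, adjusted p = 0.1846) and Pigr -0.36 (-0.99 to 0.27, adjusted p = 0.6612). The neighbours Bt/Bl and Bl, and Bl and Bt, in the order of Igha and of Jchain therefore did not pass the test. Their GeneChips did not overlap, except those of Bt/Bl and Bl for Igha by 1429381_x_at.

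**Figure D4:**
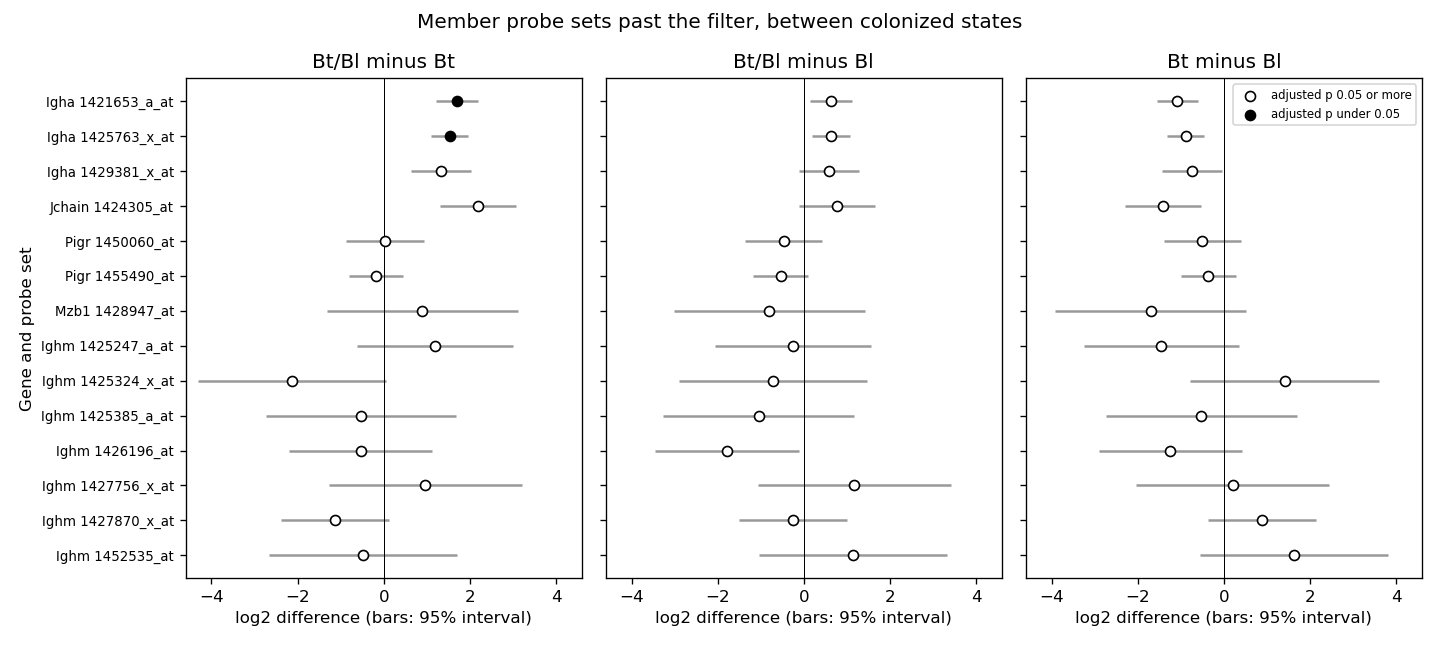
log2 differences between colonized states (horizontal axis) for the 14 tested probe sets that name a single member (rows), with 95% intervals from limma as bars. Filled points have an adjusted p under 0.05, which holds for 2 Igha probe sets in Bt/Bl minus Bt. Igha and Jchain lie right of 0 in both comparisons of Bt/Bl and left of 0 in Bt minus Bl, and the Ighm and Mzb1 intervals are wide.

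Of the 12 other genes of the B lineage that were tested, 0 passed in any of the 6 comparisons, and their differences went in both directions. Their median log2 difference to GF was 0.07 in Bt/Bl, 0.06 in Bt and -0.26 in Bl, beside 0.01, 0.02 and 0.05 over all tested probe sets. The share of all probe sets called in these comparisons was 0.197% for Bt/Bl, 0.169% for Bt and 0.137% for Bl. The brightest of the list were Sdc1, the syndecan that marks plasma cells and is also made by epithelium, Xbp1, a transcription factor of secretory cells, and Blnk, an adaptor of B cell receptor signalling. Sdc1 had 54796 and 53371 in Bt/Bl, 45703 and 42898 in Bt, 35418 and 43642 in Bl, against 53478 and 46950 in GF, and Xbp1 averaged 0.03 in Bt/Bl, 0.02 in Bt and -0.44 in Bl as log2 difference to GF. Blnk had 19319 and 17281 in Bt/Bl, 12619 and 10383 in Bt, and 13466 and 18195 in Bl, against 17226 and 18060 in GF. Both Bt GeneChips of Blnk were below all others, as for Igha, with log2 differences of -0.62 in Bt against GF (adjusted p = 0.372) and 0.67 in Bt/Bl against Bt (adjusted p = 0.313), each with a standard error of 0.23. Prdm1, the transcription factor that directs plasma cell formation, was also lowest in Bt, at 1034 and 828. Its log2 difference in Bt/Bl against Bt was 1.12 with a standard error of 0.61 (adjusted p = 0.563). The median of the 12 tested genes in that comparison was 0.01, so Blnk and Prdm1 do not stand for the list. Which cells gave the Blnk signal was not tested. Cd22, a B cell lectin, and Derl3, of the endoplasmic reticulum, named after their values were seen, had negative log2 differences to GF in all colonized states, at -0.31 and -0.24 in Bt/Bl, -1.70 and -1.15 in Bt, and -2.31 and -1.46 in Bl, and did not pass. Pax5 and Cd74 instead had positive log2 differences to GF in all colonized states. These were 1.56 and 0.54 in Bt/Bl, 1.57 and 0.54 in Bt, and 2.17 and 0.18 in Bl, and did not pass either.

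The machinery of antibody folding and secretion likewise had 0 calls in any comparison among 17 tested genes of 20. Its median log2 difference to GF was 0.07 in Bt/Bl, -0.16 in Bt and -0.15 in Bl. Hspa5, the chaperone BiP that was named for binding immunoglobulin heavy chains, had 38006 and 33364 in Bt/Bl, 16568 and 23306 in Bt, 9171 and 27522 in Bl, against 16868 and 31321 in GF. Its Bt/Bl GeneChips were above all others, and its log2 difference of Bt/Bl to Bt was 0.86 (standard error 0.40, adjusted p = 0.472). Sec61b, a subunit of the protein channel of the endoplasmic reticulum, stayed between 22310 and 30344 on all GeneChips. These genes serve secretion in the epithelium as well as in plasma cells.

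Signals for IgA switching and plasma cell survival, 12 tested genes of 19 with a probe set, had 0 calls in any comparison. The cytokines Il5, Il10 and Il21 did not exceed the filter signal on both GeneChips of any state. Aldh1a1, which makes retinoic acid, had 135014 and 111593 in Bt/Bl, 231852 and 203202 in Bt, 346492 and 246136 in Bl, against 267907 and 234061 in GF, so both Bt/Bl GeneChips were below all others. Its log2 difference was -1.03 for Bt/Bl against GF (standard error 0.27, adjusted p = 0.274) and -1.25 for Bt/Bl against Bl (adjusted p = 0.108). Smad3 and Smad4, the effectors of TGF-β signals, and Tgfbr2, its receptor, had log2 differences of -0.06, 0.34 and -0.02 in Bt/Bl against Bt.

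Among genes of plasma cell homing 8 of 13 were tested and 0 passed in any comparison. Ccl28, the epithelial chemokine that draws IgA plasma cells to the large intestine, had 11947 and 12393 in Bt/Bl, 12673 and 7920 in Bt, 10959 and 14503 in Bl, against 15417 and 17342 in GF. Both GF GeneChips were above all others. The log2 difference to GF was -0.43 in Bt/Bl (adjusted p = 0.815), -0.71 in Bt (adjusted p = 0.37) and -0.38 in Bl (adjusted p = 0.611), each with a standard error of 0.26. Its receptor Ccr10 did not exceed the filter signal on both GeneChips of any state. Ccl25, another chemokine, was named after its values were seen. Its signals were 542 and 80.4 in Bt/Bl, 93.2 and 135 in Bt, 257 and 235 in Bl, against 2272.5 and 1149.6 in GF. It exceeded the filter signal only in GF, and 3 values were under the floor. Vcam1, and Madcam1, named after its values were seen, had their lowest means in GF, at 587.6 and 582.9, against 721.6 to 1433 in the colonized states. Both overlapped between GF and Bt/Bl, with Madcam1 at 195 and 971 in GF and 1276 and 167 in Bt/Bl. Cxcl13, a chemokine of the same list, instead had its highest mean in GF, at 1704, against 531 to 1324 in the colonized states.

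Of genes known to act on Pigr 15 of 16 with a probe set were tested and 0 passed in any comparison. Their median log2 difference to GF was 0.39 in Bt/Bl, 0.11 in Bt and 0.13 in Bl. Irf1, an interferon-induced factor known to raise PIGR in human cells, had 10623 and 13290 in Bt/Bl, 8576 and 9318 in Bt, 9363 and 10692 in Bl, against 8426 and 8681 in GF, with a log2 difference of 0.47 in Bt/Bl against GF (standard error 0.24, adjusted p = 0.724). Il17rc, a subunit of the IL-17 receptor, had a log2 difference of -0.57 in Bt/Bl against Bt (adjusted p = 0.611). The machinery that carries Pigr through the cell, 12 tested genes of 13, also had 0 calls. Myo5b, the motor of recycling endosomes, had log2 differences to GF of 0.14 in Bt/Bl, 0.21 in Bt and 0.21 in Bl, and Rab17, a GTPase of transcytosis, -0.43, 0.14 and -0.06 in that order.

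Among other antibody receptors 1 of 4 tested genes passed. Tfrc, the transferrin receptor, which in human cells also binds polymeric IgA1, had 14321 and 12237 in Bt/Bl, 6415 and 8125 in Bt, 8252 and 25450 in Bl, against 31653 and 40152 in GF. Both GF GeneChips were above all others, and the Bl duplicates lay far apart. Tfrc fell by 2.30 on the log2 scale in Bt against GF (standard error 0.38, limma adjusted p = 0.0141), and its differences of -1.43 in Bt/Bl (adjusted p = 0.277) and -1.30 in Bl (adjusted p = 0.204) did not pass. Over 17 alternative settings the difference in Bt was between -2.51 and -2.13 and was called in 4, with adjusted p from 0.00728 to 0.555. Among those, the call was lost without 9128 or 9129 of GF, 9130 or 9443 of Bt, and 9132 or 9133 of Bt/Bl. Fcgrt, the neonatal receptor for IgG, had a log2 difference of 0.29 in Bt (adjusted p = 0.933).

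Markers of neighbouring cell types were read in the same way. Fibroblast markers summed to 49381 and 50119 in Bt/Bl, 72859 and 76144 in Bt, 34360 and 41842 in Bl, against 95432 and 97011 in GF. The sum was thus highest in GF, as Igha was, and lowest in Bl, but it weights bright probe sets and does not stand for each marker. Pdgfra and Dcn, named after their values were seen, had their lowest log2 mean in Bt, with differences to GF of -1.36 and -1.51 there. Every other tested fibroblast marker had its lowest log2 mean in Bt/Bl or in Bl. Among them were Col1a1, with a log2 difference to GF of -1.80 in Bt/Bl, and Col1a2, with -1.47 in Bl. Adamdec1, a metalloprotease of the lamina propria, made up much of the sum, with 26267 and 26316 in Bt/Bl, 44297 and 37624 in Bt, 13749 and 17394 in Bl, against 51699 and 59603 in GF. Adamdec1 fell by 1.84 on the log2 scale in Bl against GF (standard error 0.22, limma adjusted p = 7.28e-04) and was higher in Bt than in Bl by 1.40 (standard error 0.22, limma adjusted p = 0.0239). The first was called in 10 of 17 alternative settings (adjusted p from 7.76e-04 to 0.325) and lost without 9128 or 9129 of GF, 9130 of Bt, or 9134 of Bl. The second was called in 3 of 18 (0.0118 to 0.474) and lost without any 1 GeneChip other than 9135 of Bl. The other 9 tested fibroblast markers did not pass. Col3a1, a fibrillar collagen, had log2 differences to GF of -0.83 in Bt/Bl, -0.39 in Bt and -1.35 in Bl (adjusted p = 0.0634 in Bl).

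Smooth muscle markers summed to 5225 and 5696 in Bt/Bl, 9146 and 15325 in Bt, 5908 and 6785 in Bl, against 6027 and 6563 in GF. The sum was highest in Bt, but Acta2, at 2879 to 11183, made up much of it, and Tagln and Cnn1 did not pass the filter. In Bt against GF the log2 difference was 0.96 for Acta2, 1.94 for Actg2, 0.77 for Myh11 and -0.29 for Des. Myeloid markers summed to 31698 and 32413 in Bt/Bl, 29597 and 33970 in Bt, 18973 and 23279 in Bl, against 23725 and 24415 in GF. T cell markers summed to 3869 and 3953 in Bt/Bl, 6816 and 7127 in Bt, 7502 and 9163 in Bl, against 4164 and 5351 in GF. Of 4 smooth muscle, 10 myeloid, 5 T cell, 3 endothelial and 5 follicle and M cell markers tested, 0 passed in any comparison. Among the follicle markers, Cr2 and Fcer2a of B cell follicles did not exceed the filter signal on both GeneChips of any state. The part of these cells in the differences of Igha and Jchain was not tested. Epithelial markers summed to 1281524 and 1284003 in Bt/Bl, 1162614 and 1279521 in Bt, 1386016 and 1663177 in Bl, against 1264282 and 1423771 in GF, and 0 of 11 passed in any comparison.

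**Figure D5:**
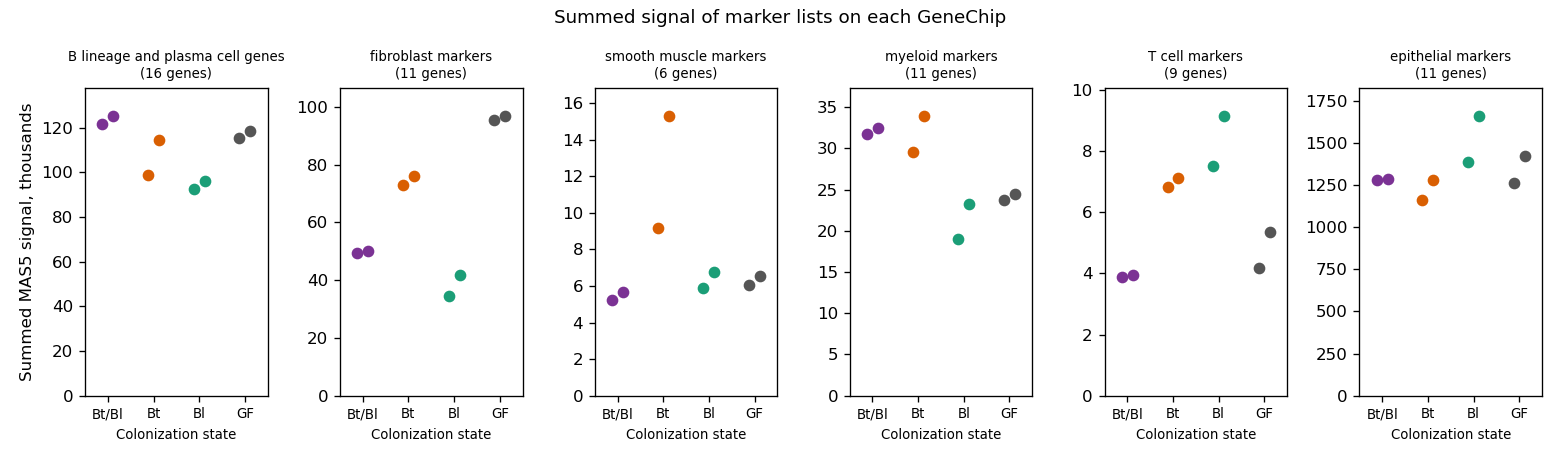
Summed MAS5 signal (vertical axes, in units of 1000, each starting at 0) of 6 marker lists by colonization state, with 1 point for the lower and 1 for the higher GeneChip of a state. The fibroblast sum, led by Adamdec1, was highest in GF and lowest in Bl. The smooth muscle sum, led by Acta2, was highest in Bt, and the B lineage sum, led by Sdc1 and Xbp1, was lowest in Bl.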

How the data were processed

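The authors hybridized RNA from laser-captured cecal epithelium to Mouse 430 2.0 GeneChips and deposited a MAS5 signal intensity for each probe set, with no detection calls. dChip, named in the methods, was not used here. From these signals 64 control probe sets were left out, values were floored and put on the log2 scale, and 24865 probe sets were compared by moderated linear models with a trend on mean intensity (limma 3.58.1, R 4.3.3) on 8 GeneChips, with Benjamini-Hochberg adjustment and a threshold of 0.05. The fit was tested on simulated data. Probe sets were named through the platform annotation, in which 34958 name 1 gene, 932 several and 9211 none. A gene of a list was represented by its brightest probe set. The members and lists were chosen with earlier results of these data known. All member probe sets are named, and of each list the genes called or up to 4 of the brightest, besides genes named after their values were seen. Alternatives were other scalings, floors, filters and models, and each GeneChip left out. No member is annotated on the GlycoGeneChip, which was not used here.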

Additional observations from a re-analysis of the deposited data

Results flagged for a closer look

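For Igha and Jchain the difference that goes with 1 bacterial species changed sign with the presence of the other, with no overlap between the GeneChips compared. By probe set 1421653_a_at of Igha, adding B. longum went with a log2 difference of 1.71 in mice that had B. thetaiotaomicron (Bt/Bl against Bt) and of -1.97 in mice that had none (Bl against GF), a gap of 3.68. Adding B. thetaiotaomicron went with 0.63 in mice that had B. longum (Bt/Bl against Bl) and with -3.05 in mice that had none (Bt against GF), which by construction is the same gap of 3.68. By 1425763_x_at the values were 1.53 and -1.87 for B. longum and 0.63 and -2.76 for B. thetaiotaomicron, with a gap of 3.39. By 1429381_x_at they were 1.33 and -1.66 for B. longum, with a gap of 2.99, and for Jchain 2.19 and -1.58 for B. longum and 0.77 and -3.00 for B. thetaiotaomicron, with a gap of 3.77. The gap itself was not tested, since the differences to GF were among the values from which these genes were chosen. The same kind of sign change without overlap, higher with the other species and lower without it, was seen in 3.86% of the 24865 tested probe sets for B. longum and in 3.88% for B. thetaiotaomicron. Igha and Jchain were chosen as lower than GF in every colonized state, so the lower part of this pattern was set by the choice. Shares over all probe sets do not allow for that and only place the values. The GF GeneChips enter every one of these gaps and also stood apart in Xist, Eif2s3y and Fabp6. Their part in the gap was not tested.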

How the results depend on the processing

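Of the 14 member probe sets tested, 2 were called in Bt/Bl against Bt, and 0 with median scaling, 75th percentile scaling, no filter, no intensity trend, without the GF GeneChips, or only the GeneChips compared. Dropping GeneChips singly gave counts from 0 to 2. Plasma cell transcripts minus Pigr moved to -0.74 in Bt/Bl, -2.86 in Bt and -1.98 in Bl with Igha and Jchain alone, and to -1.37 in Bt with the floor at the median, and ranged over single GeneChips left out from -0.65 to -0.39 in Bt/Bl, -1.76 to -1.47 in Bt and -1.28 to -1.02 in Bl. None of the differences called changed sign. Among the others, Pigr in Bt/Bl against Bt was 0.17 without Bt 9130 and ranged from -0.54 to 0.17 over GeneChips left out, Mzb1 was -0.62 there without Bt 9443 (range -0.62 to 2.41) and 0.00 in Bt/Bl against Bl without Bl 9134 (range -1.59 to 0.00), and Ighm in Bt/Bl against Bl was 0.04 with median scaling, 0.21 without Bt/Bl 9132 and 0.07 without Bl 9134 (range -0.71 to 0.21). By 1450060_at, Pigr ranged from -0.77 to 0.83 in Bt/Bl against Bt and from -1.31 to 0.30 in Bt against Bl. Differences to GF also changed sign with 1 GeneChip left out: for Pigr by 1455490_at (-0.51 to 0.20 in Bt, -0.02 to 0.42 in Bl) and by 1450060_at (-1.12 to 0.49 in Bt, -0.11 to 0.49 in Bl), for Mzb1 in Bl (-1.02 to 0.58), for Ighm by 1427870_x_at (-0.86 to 0.32 in Bt/Bl, -0.61 to 0.57 in Bl), and for dimmer Ighm probe sets. Of the list genes, 1 was called in Bt against GF, 1 in Bl against GF, 1 in Bt against Bl and 0 in the other comparisons. In Bt against GF and in Bt against Bl the count was 0 with median scaling, 75th percentile scaling, the floor at the median, no filter, the filter at the 75th percentile, no intensity trend, or only the GeneChips compared. In Bl against GF it was 0 with no filter, no intensity trend, or only the GeneChips compared, and in Bt/Bl against GF it was 1 with quantile normalization. With single GeneChips left out these counts ranged from 0 to 1 in Bt against GF, 0 to 2 in Bl against GF, 0 to 2 in Bt/Bl against Bt, 0 to 3 in Bt/Bl against Bl, and 0 to 2 in Bt against Bl. The causes were not tested. With median scaling the median log2 difference of all tested probe sets in Bl against GF was -0.28, beside 0.05 as deposited. No paired analysis was possible because the GeneChip numbers differ between states and the labels share no replicate number. Dim probe sets, such as those of Ighm and Mzb1, limit what can be read.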
